A study of Mus musculus with 8 samples.

Results

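The epidermal growth factor (EGF) family was examined here through 10 genes, of 25378 in the deposited table, each found by its symbol. They are 6 ligands (Areg, Ereg, Epgn, Btc, Hbegf and Tgfa), 3 receptors (Egfr, Erbb2 and Erbb3) and Lrig1, a membrane protein that restrains the receptors. Messenger RNA was measured by bulk sequencing of lesional back skin from 8 wild-type female C57BL/6 mice, 6 weeks old, in 2 groups of 4. In the propionic acid group, 5 nmol of MC903 was put on the back for 10 consecutive days, followed 1 h later by propionic acid at 1 mM. Propionic acid is a short-chain fatty acid that skin bacteria can make. The control group had the same MC903 and then a control application whose contents are not stated. Skin was harvested at day 11. MC903, also named calcipotriol, activates the vitamin D receptor and gives mouse skin a dermatitis resembling atopic dermatitis, and skin without MC903 was not analysed here. Samples named as biological replicates were taken as separate mice.

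EGF family ligands are made as membrane-anchored precursors and are released by metalloproteases, chiefly ADAM17. The freed ligand joins EGFR molecules in pairs, with each other or with ERBB2, and starts signalling through RAS and the ERK kinases. In the epidermis this pathway keeps basal keratinocytes dividing, drives wound closure and holds back terminal differentiation. ERBB2 has no known ligand of its own, and ERBB3, which has little kinase activity, binds neuregulins and signals through its partner.

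Epgn, Ereg, Areg and Btc lie side by side on chromosome 5 of GRCm38 (the mm10 assembly), between 91027464 and 91402994 in the GENCODE vM21 annotation. No other protein-coding gene is annotated within that span of 375531 bases. Epgn is at 91027464 to 91035215, Ereg at 91074622 to 91093646 and Areg at 91139599 to 91148432, all on the plus strand, and Btc is at 91357261 to 91402994 on the minus strand. The stretches just before the starts of 3 of these neighbours are shown, because their levels are set side by side below. Each holds the 110 bases before the annotated start, read 5′ to 3′ on the gene's strand, from the RefSeq promoter table of GRCm38.p6. Where the RefSeq and GENCODE starts differ, the earlier one was used. Capitals mark the motifs that were found.
Epgn, chr5:91027354-91027463, plus strand: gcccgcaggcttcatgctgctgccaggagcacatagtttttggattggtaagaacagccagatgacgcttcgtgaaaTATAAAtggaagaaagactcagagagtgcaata
Areg, chr5:91139489-91139598, plus strand: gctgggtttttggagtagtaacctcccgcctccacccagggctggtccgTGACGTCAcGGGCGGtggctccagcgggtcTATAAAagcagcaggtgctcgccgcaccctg
Btc, chr5:91402995-91403104, minus strand: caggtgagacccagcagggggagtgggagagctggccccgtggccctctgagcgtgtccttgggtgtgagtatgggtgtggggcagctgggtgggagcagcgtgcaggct

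The RefSeq table held promoters of 300 bases (250 before and 50 after the start) for 7 of the 10 genes. Hbegf, Ereg and Erbb3 had none there. Both strands were searched for 4 motifs, and no 2 matches overlapped. The TATA box TATAAA was found in Epgn and Areg, 33 and 31 bases before the start used above, and in 13.6% of all 32851 promoters in the table. For Epgn the distance depends on the annotation, as the motif was at -86 from the RefSeq start around which the promoters were cut. The cyclic AMP response element TGACGTCA was found in Areg, 61 bases before the start, and in 1.79% of all promoters. The GC box GGGCGG was found in Areg, Tgfa, Lrig1 and Egfr and in 35.7% of all, and the AP-1 motif TGANTCA in none of the 7 and in 7.81% of all. These are matches of letters, not measured binding.

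Levels are given in FPKM, a count of fragments divided by gene length and by library depth, which allows genes to be compared per length. Whole reads could be recovered from the steps of the FPKM values, and gave totals of 39034193 to 40194111 reads per library, so depth was nearly equal. A gene was tested where it had 1 FPKM or more in at least 4 libraries, and all 10 genes passed this filter among 12598 tested. The test was limma on log2(FPKM + 1) over all tested genes, 2-sided, with Benjamini-Hochberg adjustment and a threshold of 0.05. The added 1 can shrink fold changes where FPKM is low. With 0.1 added instead, the log2 fold change of Btc was 0.306 in place of 0.215, while that of Ereg stayed near -0.2 (-0.193). The keratinocyte genes that define skin were abundant, with Krt5 at 987.9 ± 67.0 FPKM in propionic acid skin and 1235.8 ± 192.2 in control skin, and Krt14 at 3930.9 ± 575.4 and 3946.4 ± 1154.8 (SD, n = 4 each). The Krt5 groups did not overlap, with a limma adjusted p of 0.802. In bulk tissue, fewer cells of a type and less RNA per cell cannot be told apart.

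None of the 10 genes passed the threshold, and neither did any of the 12598 genes tested (0.0%). With voom on the recovered reads the number was also 0, and 749 genes had an unadjusted p under 0.05. At an unadjusted limma p under 0.05 there was 1 of the 10, Hbegf, which was lower with propionic acid. Over all tested genes there were 792 (6.29%), of which 513 were higher (4.07%) and 279 lower (2.21%) with propionic acid. Of the 10 genes, 5 had a positive and 5 a negative log2 fold change, with a median of -0.002, while 51.7% of all tested genes had a positive one and their median was 0.006. The groups did not overlap for 1 of the 10, again Hbegf, against 3.16% of all tested genes (2.06% higher and 1.1% lower with propionic acid). A count of 1 in 10 genes is too small to be set apart from these background shares, which for lower genes were 2.21% and 1.1%.

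**Figure D1:**
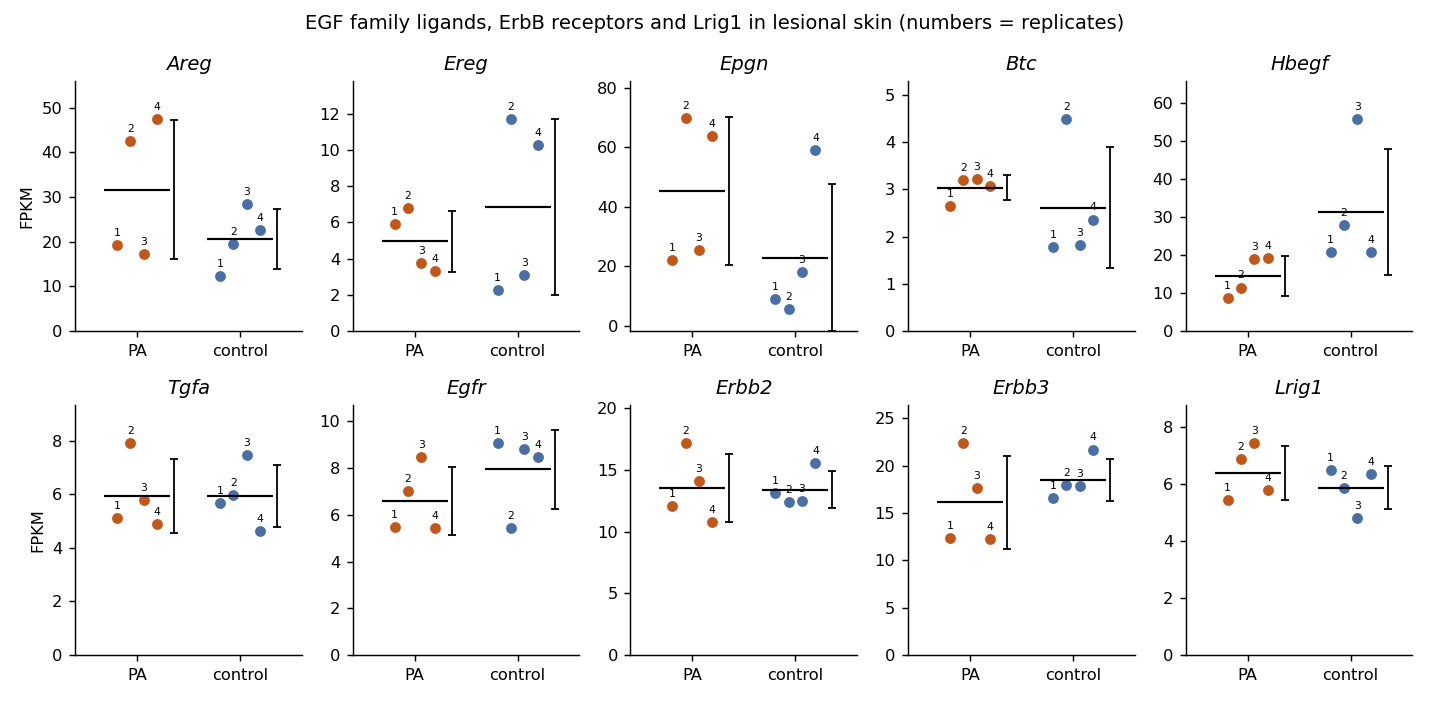
FPKM of the 10 genes in each mouse, on axes that include 0, with propionic acid (PA) mice in orange and control mice in blue. Digits are replicate numbers, horizontal lines are group means and bars beside the points are 1 SD (n = 4). Only in the Hbegf panel do all 4 PA points, 8.76 to 19.3 FPKM, lie below all 4 control points, 20.9 to 55.8 FPKM.

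Among the ligands, Hbegf encodes heparin-binding EGF-like growth factor, which keratinocytes and macrophages make and which speeds keratinocyte migration in wounds. It had 8.76, 11.5, 18.9 and 19.3 FPKM in propionic acid replicates 1 to 4, and 20.9, 27.9, 55.8 and 20.9 FPKM in control replicates 1 to 4. Every propionic acid mouse was below every control mouse, although the gap between the nearest mice was narrow and control replicate 3 was far above the rest. The means were 14.6 ± 5.32 and 31.4 ± 16.6 FPKM (SD, n = 4 each). By limma, the log2 fold change was -1.001 with an SE of 0.34 and a 95% confidence interval of -1.77 to -0.23 before any adjustment (adjusted p = 0.715). The exact permutation p of Hbegf over the 70 regroupings of the mice was 0.0286, the smallest they can give and unadjusted for the other genes. The value rests on 833 to 5288 recovered reads per library, so counting error is small beside the spread between mice. Without control replicate 3 the log2 fold change was -0.691. In the same samples, 8 of 8 macrophage and myeloid markers had a negative log2 fold change with propionic acid, where 51.7% of all tested genes had a positive one. These ranged from -0.7 to -0.03. An unadjusted limma p under 0.05 was found for 1 of the 8, against 2.21% of all tested genes lower at that p. The groups overlapped for all 8 markers. The summed level of these markers was 1388 to 2409 FPKM against 1849 to 2889 FPKM in control skin. The summed mast cell and basophil markers were 695.5 to 1047 FPKM against 765.1 to 1311, and no marker of either list was at 0 in all libraries. Of the 8 mast cell and basophil markers, 6 had a negative and 2 a positive log2 fold change. Over the 8 mice, log2 Hbegf had a Pearson r of 0.715 and a Spearman rho of 0.738 with the mean log2 level of the mast cell and basophil markers (exact permutation p = 0.0421 and 0.0458). Adjusted over the 130 relations of the 10 genes with 13 marker lists, these were 0.548 and 0.662, and r was 0.72 without the 2 mice farthest from the median of the marker mean. With the macrophage and myeloid mean, r was 0.553 and rho 0.643 (exact permutation p = 0.152 and 0.0962, adjusted to 0.659 and 0.735), and r was 0.713 without the 2 mice farthest from the median. Neither relation passed, and no fit held these markers as a covariate. Like every relation with a marker list here, both pool the 2 groups, so each also holds any group difference. The mast cell and basophil mean was 5.37 to 5.92 in propionic acid skin and 5.64 to 6.36 in control skin. For the macrophage and myeloid mean it was 6.33 to 7.01 and 6.61 to 7.59. Relations of Hbegf with these markers inside a group were not computed. Nor were the 2 lists the only ones with relations of this size. With the T and innate lymphoid cell mean, r was 0.562 and rho 0.524 (exact permutation p = 0.143 and 0.197, adjusted to 0.642 and 0.752). For the suprabasal keratinocyte mean, r was -0.427 (exact permutation p = 0.301, adjusted to 0.725), and -0.813 without the 2 mice farthest from the median.

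Epgn encodes epigen, a ligand that binds EGFR weakly and is made by keratinocytes. It had 22.1, 69.8, 25.5 and 63.8 FPKM in propionic acid replicates 1 to 4, and 8.83, 5.61, 18.2 and 59.1 FPKM in control replicates 1 to 4. Propionic acid replicates 2 and 4 and control replicate 4 formed a high set, and the groups overlapped through that control mouse. Epgn had a log2 fold change of 1.31, with a 95% confidence interval of -0.17 to 2.78 (limma adjusted p = 0.819). It was 1.928 without control replicate 4 and 0.867 without control replicate 2, the lowest of the 8 mice.

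Areg encodes amphiregulin, an EGFR ligand made by keratinocytes and by some immune cells. It had 19.2, 42.5, 17.3 and 47.4 FPKM in propionic acid replicates 1 to 4, and 12.3, 19.5, 28.4 and 22.6 FPKM in control replicates 1 to 4. Propionic acid replicates 2 and 4 were again the highest of the 8, while replicates 1 and 3 lay inside the control range. For Areg the log2 fold change was 0.51, with an interval of -0.30 to 1.32 (limma adjusted p = 0.86), and it was 0.275 without propionic acid replicate 4.

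Epgn and Areg, neighbours on chromosome 5, had their highest values in the same 2 mice of the propionic acid group. Over the 8 mice, Pearson's r between their log2 levels was 0.724 and Spearman's rho 0.619, with exact permutation p values of 0.0431 and 0.115. Among the 45 pairs of the 10 genes, both adjusted values missed the threshold (0.966 and 0.744), and r was 0.401 without the 2 mice farthest from the median of Areg. Areg had an r of 0.064 with Ereg, which lies between Epgn and Areg, and of 0.226 with Btc.

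Ereg encodes epiregulin, which binds EGFR and ERBB4. It had 5.9, 6.81, 3.79 and 3.31 FPKM in propionic acid replicates 1 to 4, and 2.3, 11.7, 3.08 and 10.3 FPKM in control replicates 1 to 4. Control replicates 2 and 4 were the highest of the 8 and control replicates 1 and 3 the lowest, so the propionic acid mice lay within the control range. For Ereg this gave a log2 fold change of -0.20, with an interval of -1.19 to 0.79 (limma adjusted p = 0.95). It turned to 0.113 without control replicate 2 and to 0.056 without control replicate 4, and was -1.055 without both control replicates 1 and 3 (limma adjusted p = 0.67).

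Btc (betacellulin), another ligand of EGFR and ERBB4, was the least abundant of the 6 ligands in every mouse. It had 2.64, 3.19, 3.22 and 3.07 FPKM in propionic acid replicates 1 to 4, and 1.78, 4.48, 1.82 and 2.36 FPKM in control replicates 1 to 4. The SD was 0.268 FPKM in propionic acid skin and 1.27 in control skin, and control replicate 2 stood above all other mice. The log2 fold change of 0.22 had an interval of -0.25 to 0.68 (limma adjusted p = 0.886). It was 0.435 without control replicate 2 (limma adjusted p = 0.422) and -0.092 without both control replicates 1 and 3.

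Tgfa encodes transforming growth factor alpha, an EGFR ligand whose loss gives mice wavy hair. It had 5.12, 7.93, 5.8 and 4.88 FPKM in propionic acid replicates 1 to 4, and 5.67, 5.98, 7.48 and 4.65 FPKM in control replicates 1 to 4. The means were 5.93 ± 1.38 and 5.95 ± 1.17 FPKM (SD, n = 4 each), and the groups overlapped almost fully. With a 95% confidence interval of -0.39 to 0.37 for its log2 fold change, Tgfa may have changed by any amount within these bounds.

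The makeup of the ligand transcripts differed widely between mice. Epgn was the most abundant of the 6 ligands in 4 of 4 propionic acid mice and in 1 of 4 control mice, and Hbegf was the most abundant in the other 3 control mice. Epgn made up 34.2% to 49.3% of the summed ligand FPKM in propionic acid skin (median 39.9%) and 7.46% to 49.2% in control skin (median 16.4%). Hbegf made up 8.1% to 25.4% in propionic acid skin (median 13.6%) and 17.5% to 48.6% in control skin (median 38.8%). Areg took 23.2% to 33.4% in propionic acid skin and 18.9% to 25.9% in control skin. Both groups thus overlapped for each of these shares. Control replicate 4 lay within the propionic acid range for Epgn and Hbegf, while its Areg share of 18.9% was the lowest of the 8 mice. The summed ligand level was 105.5 ± 42.2 FPKM in propionic acid skin and 90.5 ± 32.6 FPKM in control skin, a difference well inside the spread between mice. These shares are a description, chosen after the values were seen.

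**Figure D2:**
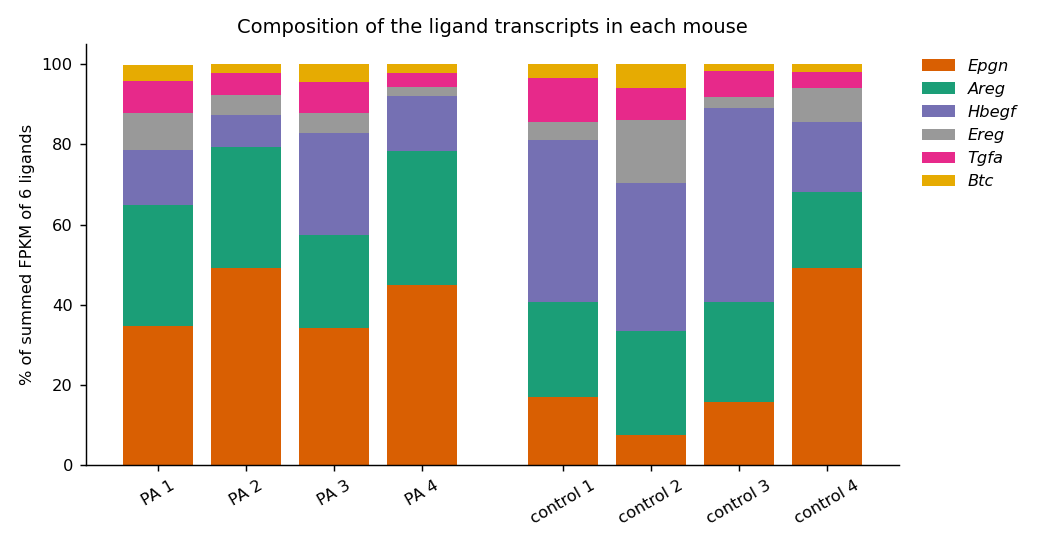
Share of each of the 6 ligands in their summed FPKM, in percent, with 1 stacked bar per mouse and propionic acid (PA) mice on the left. Epgn is the largest block in PA 1 to 4 (34.2% to 49.3%) and in control 4 (49.2%), and Hbegf is the largest in control 1 to 3.

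Among the receptors, Erbb3 was the most abundant and Egfr the least in each group. Erbb3 had 12.3, 22.4, 17.6 and 12.2 FPKM in propionic acid replicates 1 to 4, and 16.6, 17.9, 17.8 and 21.7 FPKM in control replicates 1 to 4. Propionic acid replicates 1 and 4 were the lowest of the 8 mice and replicate 2 the highest, so the groups overlapped. The log2 fold change was -0.22, with an interval of -0.64 to 0.20 (limma adjusted p = 0.878).

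Erbb2 had 12.1, 17.2, 14.1 and 10.8 FPKM in propionic acid replicates 1 to 4, and 13.1, 12.4, 12.5 and 15.6 FPKM in control replicates 1 to 4. Its order over the propionic acid mice was close to that of Erbb3, with replicate 2 highest and replicates 1 and 4 lowest. Erbb2 had a log2 fold change of 0.00, with an interval of -0.33 to 0.33 (limma adjusted p = 0.999). Of the summed FPKM of the 3 receptors, Erbb2 made up 35.1% to 40.4% in propionic acid skin and 31.9% to 34.6% in control skin, without overlap. Such a share also moves with Egfr and Erbb3, whose own shares overlapped between groups. The receptor shares are a description and were not tested. Between Erbb2 and Erbb3, Pearson's r over the 8 mice was 0.869 and Spearman's rho 0.786 (exact permutation p = 0.00816 and 0.0279, adjusted over 45 pairs to 0.367 and 0.628). Without the 2 mice farthest from the median of Erbb2, r was 0.725. This was the smallest permutation p for Pearson's r of all 45 pairs, and 0 pairs passed after adjustment.

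Egfr encodes the receptor shared by all 6 ligands. It had 5.46, 7.02, 8.47 and 5.45 FPKM in propionic acid replicates 1 to 4, and 9.08, 5.44, 8.82 and 8.48 FPKM in control replicates 1 to 4. Propionic acid replicates 1 and 4 and control replicate 2 were alike and low, and the other 5 mice had 7.02 FPKM or more. The log2 fold change was -0.23, with an interval of -0.64 to 0.18 (limma adjusted p = 0.874), and it was -0.384 without control replicate 2 (adjusted p = 0.496). It was -0.059 without both control replicates 1 and 3, and -0.043 with the mean level of skeletal muscle markers as a covariate (limma adjusted p = 1.0 and 0.98).

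Lrig1 marks stem cells of the upper hair follicle and lowers ErbB receptor protein. It had 5.43, 6.86, 7.43 and 5.78 FPKM in propionic acid replicates 1 to 4, and 6.48, 5.84, 4.8 and 6.34 FPKM in control replicates 1 to 4. The ranges overlapped, with a log2 fold change of 0.10 and an interval of -0.19 to 0.40 (limma adjusted p = 0.909).

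In order of mean level, propionic acid skin had Epgn (45.3 FPKM), Areg (31.6), Erbb3 (16.1), Hbegf (14.6) and Erbb2 (13.5), followed by Egfr (6.6), Lrig1 (6.37), Tgfa (5.93), Ereg (4.95) and Btc (3.03). Control skin had Hbegf first (31.4 FPKM), then Epgn (22.9), Areg (20.7), Erbb3 (18.5) and Erbb2 (13.4). There, Egfr (7.95), Ereg (6.86), Tgfa (5.95), Lrig1 (5.87) and Btc (2.61) came after. In propionic acid skin the ranges of neighbours in this order overlapped except between Erbb2 and Egfr and between Ereg and Btc. In control skin they overlapped except between Erbb3 and Erbb2, between Erbb2 and Egfr and between Lrig1 and Btc. Some of these levels carry an annotation limit: exons of Erbb2 overlap those of Mien1 on the opposite strand, and exons of Lrig1 those of Slc25a26. Exons of Ereg and Tgfa likewise overlap the opposite-strand genes Gm19610 and Gm43917, and without the strand setting of the counting such reads cannot be told apart.

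**Figure D3:**
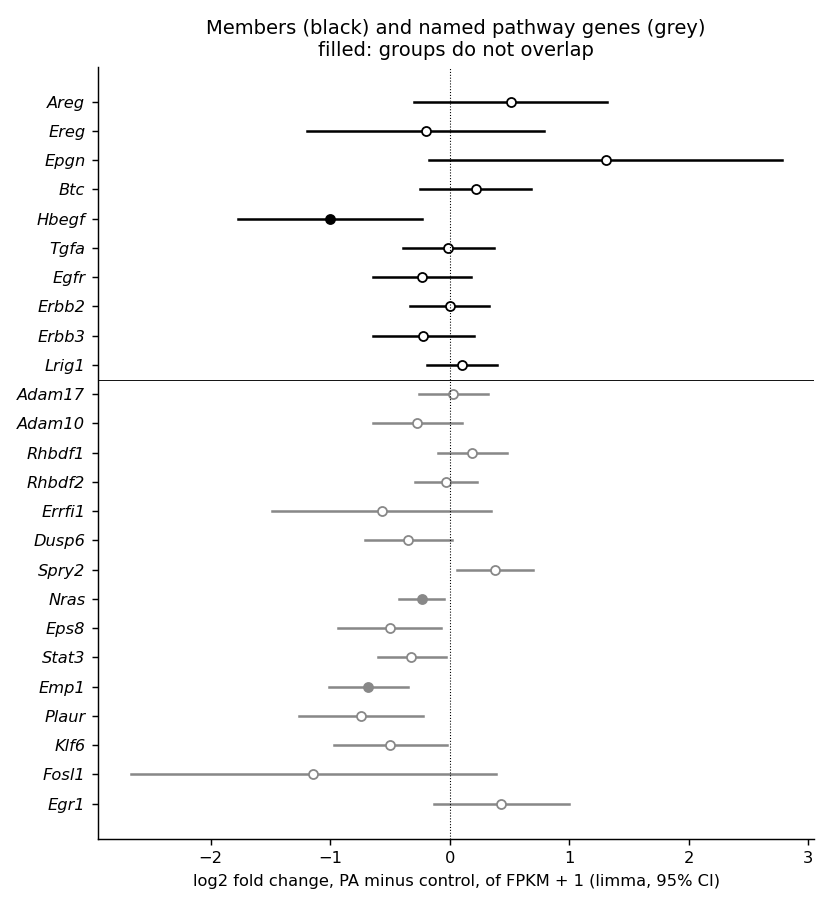
Log2 fold change of FPKM + 1, propionic acid (PA) minus control, with 95% confidence intervals from limma, for the 10 genes (black, above the line) and 15 named pathway genes (grey). Filled points mark genes whose groups do not overlap: Hbegf, Nras and Emp1. The intervals carry no adjustment for multiple genes, and 0 genes passed the adjusted threshold.

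Marker genes of other cell types and layers varied between the same mice. Skeletal muscle markers summed to 3853 to 7814 FPKM in propionic acid skin and 3893 to 6046 FPKM in control skin, and propionic acid replicates 1 and 4, low in Erbb3, had the highest mean log2 levels (8.35 and 8.44 against 7.41 to 7.88 in the other 6). Over the 8 mice, Erbb3 had a Pearson r of -0.954 and a Spearman rho of -0.833 with this mean (exact permutation p = 0.00176 and 0.0154). Those 2 mice stand apart, and r was -0.781 without the 2 mice farthest from the median of the muscle mean. Adjusted over 130 relations of 10 genes with 13 marker lists, the p values were 0.182 and 0.662, so the relation did not pass. Of the 130, 10 had an exact permutation p under 0.05 for Pearson's r, and 0 passed after adjustment. Among the 10 were also Erbb2 with the muscle mean (r = -0.816, exact permutation p = 0.015) and Erbb3 with the basal keratinocyte mean (r = 0.801, exact permutation p = 0.0166). Without the 2 farthest mice these were -0.726 and 0.432. With the muscle mean as a covariate, the log2 fold change of Erbb3 was 0.088 in place of -0.22, and that of Erbb2 was 0.228 in place of 0.00 (limma adjusted p = 0.717). The muscle markers themselves had log2 fold changes of -1.75 to 3.26, and the groups did not overlap for 4 of the 10, against 3.16% of all tested genes. This covariate was thus not independent of the groups. None of the 10 muscle markers was at 0 in all libraries. Of these 10, an unadjusted limma p under 0.05 was found for 3 that were higher with propionic acid and 2 that were lower. Over all tested genes, 4.07% were higher and 2.21% lower at that p. Of 8 adipocyte markers, 8 had a positive log2 fold change, where 51.7% of all tested genes did. An unadjusted limma p under 0.05 was found for 5 of the 8, against 4.07% of all tested genes higher at that p, while 0 passed the threshold. The summed level of the adipocyte markers was 1554.6 to 3196.3 FPKM in propionic acid skin and 1410.6 to 2248.1 FPKM in control skin. Over the 8 mice, Pearson's r of the 10 genes with the adipocyte mean lay between -0.603 (Ereg) and 0.436 (Lrig1), and was -0.482 for Hbegf, with exact permutation p values of 0.115, 0.279 and 0.232. Spearman's rho was -0.524, 0.286 and -0.619 for these genes (exact permutation p = 0.197, 0.501 and 0.115), r without the 2 farthest mice was -0.46, 0.067 and -0.576, and none of the 10 relations passed after adjustment.

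Ereg went with the suprabasal keratinocyte markers, a list that holds Krt1, Krt10 and Dsg1a. The r was 0.92 and rho 0.929 over the 8 mice (exact permutation p = 0.0028 and 0.00223, adjusted to 0.182 and 0.29), and r was 0.83 without the 2 mice farthest from the median of the marker mean. That mean was 8.29 to 9.14 on the log2 scale in propionic acid skin and 7.86 to 9.34 in control skin. Egfr was low in the 3 mice with the lowest mean log2 level of basal keratinocyte markers. These were propionic acid replicates 1 and 4, at 5.64 and 5.63, and control replicate 2, at 5.71, while the other 5 mice had 5.83 to 6.08. As the mice fall into 2 sets for Egfr, the pooled correlation with this mean is given without a reading, and it did not pass. The r was 0.824 and rho 0.69 (exact permutation p = 0.0277 and 0.0694, adjusted to 0.548 and 0.694), and r was 0.63 without the 2 farthest mice. With the basal marker mean as a covariate, the log2 fold change of Egfr was -0.046 in place of -0.23, and that of Erbb3 was -0.031 in place of -0.22 (limma adjusted p = 0.996 for both). In the same fit it was 1.814 for Epgn and -0.946 for Hbegf (limma adjusted p = 0.784 and 0.856).

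**Figure D4:**
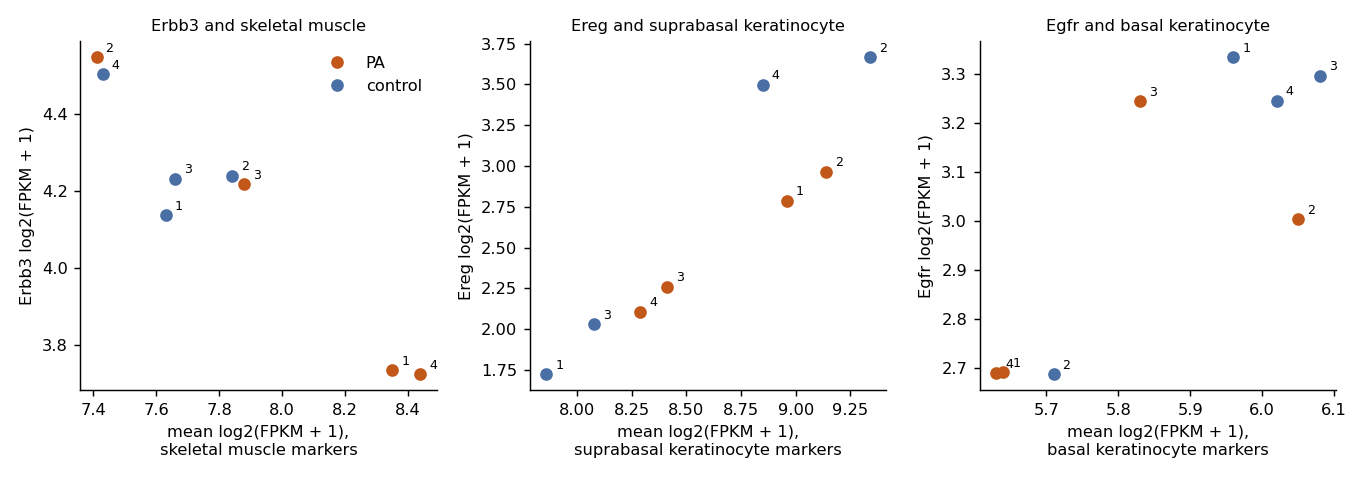
Log2(FPKM + 1) of Erbb3, Ereg and Egfr against the mean log2(FPKM + 1) of the markers of skeletal muscle (10 genes), suprabasal keratinocytes (10 genes) and basal keratinocytes (10 genes), with 1 point per mouse and digits for replicates. Propionic acid (PA) mice are orange and control mice blue. Erbb3 is lowest in PA 1 and PA 4, where the muscle mean is highest, and Ereg runs with the suprabasal mean in both groups.

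Among all other tested genes, those most like a member over the 8 mice were found by Pearson's r of log2 levels, given as a description of the top of 12588 genes. For Ereg they were Adgrf4 (0.986), the desmoglein Dsg1a (0.977) and Ndfip2 (0.973). For Erbb3 they were Ssh3 (0.989), the desmocollin Dsc3 (0.971) and Wdr26 (0.966), and for Egfr Arhgap21 (0.993), Rapgef6 (0.992) and Xpr1 (0.991). For Hbegf they were Atg5 (0.954), Slc34a2 (0.953) and Dera (0.95). The genes most like Areg were Rars (0.961), the beta-defensin Defb14 (0.942) and Zfp513 (0.917), and those most like Epgn were Trmt61a (0.951), Nop56 (0.951) and Zdhhc23 (0.944). For Tgfa the top gene was Sprr1b (0.943), for Btc BC016579 (0.971), for Erbb2 Arap2 (0.98) and for Lrig1 Fan1 (0.972).

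Ligands and receptors outside the 10 were measured too. Egf itself had 0.981 ± 0.221 FPKM in propionic acid skin and 1.03 ± 0.222 FPKM in control skin (SD, n = 4 each). Nrg1, a neuregulin that binds ERBB3, had 0.0667 to 0.222 FPKM and 0.0601 to 0.538 FPKM, under the filter. Nrg4, a ligand of ERBB4, had 3.06 ± 1.42 and 3.16 ± 1.28 FPKM. Erbb4 was near the limit of detection, with 0 to 5 reads per library.

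Among the genes that release the ligands, 0 of 10 tested had an unadjusted limma p under 0.05, and 3 had a positive and 7 a negative fold change. Over all tested genes, 6.29% had such a p and 51.7% a positive fold change. Adam17, the main sheddase of these ligands, had 18.6 ± 2.85 FPKM in propionic acid skin and 18.1 ± 1.96 FPKM in control skin. Its partner Rhbdf2 (iRhom2), which carries ADAM17 to the cell surface, had 11.3 ± 1.49 and 11.5 ± 0.88 FPKM. Adam10, which sheds Egf and betacellulin, had 29.4 ± 5.57 and 35.6 ± 5.7 FPKM (limma adjusted p = 0.848), and Rhbdf1 7.85 ± 1.34 and 6.71 ± 0.48. Adam9 and Adam8, also metalloproteases, had 21.7 ± 3.39 and 9.64 ± 1.5 FPKM in propionic acid skin, and 29.1 ± 8.42 and 14.0 ± 6.05 FPKM in control skin.

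Of 26 adaptor and MAPK core genes tested, 0 passed the threshold. An unadjusted p under 0.05 was found for 3, all lower with propionic acid, where 6.29% of all tested genes had such a p and 2.21% had one and were lower. The median log2 fold change was -0.098, against 0.006 over all tested genes, with 7 positive and 19 negative values where 51.7% of all tested genes were positive. Nras, a RAS GTPase, had 22.2, 23.4, 21.7 and 24.0 FPKM in propionic acid replicates 1 to 4, and 26.4, 27.0, 27.7 and 26.9 FPKM in control replicates 1 to 4. The Nras groups did not overlap and were tight, with a log2 fold change of -0.23 and an SE of 0.08 (limma adjusted p = 0.725). Eps8, a substrate of the EGFR kinase, had 8.05 ± 1.63 and 11.9 ± 3.2 FPKM (adjusted p = 0.759), and Stat3, a transcription factor also driven by cytokines, 49.1 ± 4.34 and 61.8 ± 9.12 FPKM (adjusted p = 0.77). Mapk3, an ERK kinase gene, had 113.8 ± 5.27 FPKM in propionic acid skin and 105.7 ± 16.3 FPKM in control skin.

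Of 19 tested feedback inhibitors, 1 had an unadjusted limma p under 0.05, against 6.29% of all tested genes. This was Spry2, which damps signalling from receptor kinases to ERK, with 5.92, 5.48, 6.69 and 7.16 FPKM in propionic acid replicates 1 to 4, and 5.83, 4.95, 3.62 and 4.21 FPKM in control replicates 1 to 4. Only control replicate 1 reached into the propionic acid range (log2 fold change 0.38, limma adjusted p = 0.746). Errfi1 (MIG6), which binds and blocks the EGFR kinase, had 75.5 ± 38.6 FPKM in propionic acid skin and 112.5 ± 51.9 FPKM in control skin. Dusp6, the phosphatase that switches ERK off, had 37.4 ± 4.0 and 48.7 ± 11.9 FPKM (limma adjusted p = 0.805). Cbl, the ubiquitin ligase that sends EGFR to lysosomes, had 6.48 ± 2.29 and 7.23 ± 1.97 FPKM, Sh3kbp1, which works with it, 9.53 ± 1.49 and 11.6 ± 1.28, and Spry4 0.852 ± 0.235 and 0.777 ± 0.296, under the filter.

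Of 20 tested genes that ERK signalling is known to induce, 0 passed the threshold. There were 9 positive and 11 negative fold changes with a median of -0.091, where 51.7% of all tested genes were positive. The 3 with an unadjusted p under 0.05 were all lower with propionic acid, against 2.21% of all tested genes lower at that p and 6.29% in either direction. Emp1, an epithelial membrane protein, had 114.6, 109.7, 119.7 and 132.0 FPKM in propionic acid replicates 1 to 4, and 179.5, 150.2, 226.1 and 218.5 FPKM in control replicates 1 to 4. The Emp1 groups did not overlap, with a log2 fold change of -0.68 and an SE of 0.15 (limma adjusted p = 0.378). Plaur, the urokinase receptor, had 14.4 ± 3.38 and 25.2 ± 8.68 FPKM (adjusted p = 0.587), with groups that overlapped slightly. Klf6, a zinc finger transcription factor, had 56.4 ± 8.9 and 82.0 ± 23.6 FPKM (adjusted p = 0.786).

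Other named genes of this list had fold changes of either sign. Egr1, an immediate early transcription factor, had 177.8 ± 35.7 FPKM in propionic acid skin and 135.7 ± 48.1 FPKM in control skin (limma adjusted p = 0.841). Phlda1 had 21.2 ± 5.38 and 19.7 ± 9.65 FPKM, and the ETS factors Etv4 and Etv5 had 3.47 ± 0.922 and 4.99 ± 0.769 FPKM in propionic acid skin, and 2.84 ± 0.989 and 5.53 ± 0.828 FPKM in control skin. Fosl1, an AP-1 subunit, had 1.14, 3.03, 2.13 and 3.7 FPKM in propionic acid replicates 1 to 4, and 1.24, 2.83, 13.1 and 24.0 FPKM in control replicates 1 to 4. Control replicates 3 and 4 were far above the other 6 mice, and the groups overlapped (log2 fold change -1.14, interval -2.67 to 0.39, limma adjusted p = 0.845).

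**Figure D5:**
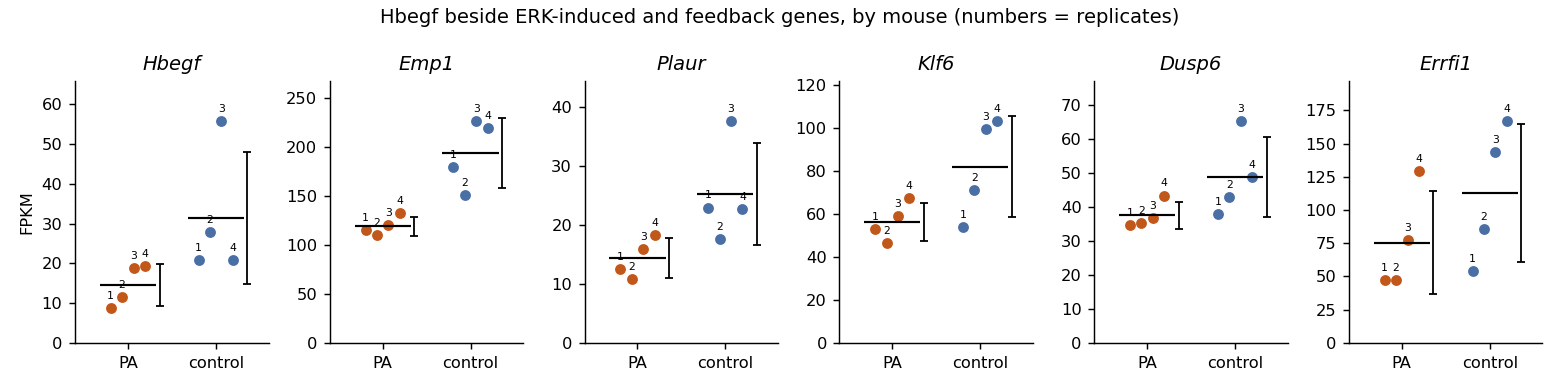
FPKM by mouse of Hbegf, of the ERK-induced genes Emp1, Plaur and Klf6 and of the inhibitors Dusp6 and Errfi1, with propionic acid (PA) mice in orange on the left of each panel and control mice in blue. Lines are group means and bars 1 SD (n = 4). The PA and control points are apart for Hbegf and Emp1 and overlap for Plaur, Klf6, Dusp6 and Errfi1. All genes shown had lower means in PA skin, and Emp1, Plaur and Klf6 were taken for the smallest p in their list. Genes of these lists with positive log2 fold changes, such as Egr1 (0.43) and Spry2 (0.38), are not shown. Of the tested genes, 9 of 20 ERK-induced genes and 7 of 19 inhibitors had a positive one.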

How the data were processed

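Per the labels' protocols, RNA of lesional back skin of 8 mice was extracted with TRIzol and made into libraries with a VAHTS V6 kit. The authors deposited 1 table of FPKM per gene and library. The build was mm10 and the tools CASAVA, cutadapt and HISAT2 2.1.0, per the submitters' processing notes; how fragments were counted, on which annotation and with which strand setting, is not given in the sources used here. Whole reads were recovered for all 25378 genes from the steps between the FPKM values of a gene (tolerance 0.01 of a read), except that a common divisor of a gene's reads would go unseen.

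Genes with 1 FPKM or more in at least 4 libraries were fitted as log2(FPKM + 1) with limma 3.58.1 in R 4.3.3 (intensity trend, robust moderation, group as only term). The fit was run on simulated data in which each gene was drawn independently. That check does not show how the fit performs where genes vary together between mice, and it is not used as evidence for the results above. Correlations used exact permutations (40320 pairings). Limma p-values weigh a group difference against the spread between samples within groups. Permutation p-values place the observed value among all regroupings or pairings of these samples. Alternatives were other pseudocounts, filters and scalings, voom on recovered reads, plain moderation, a replicate block, marker covariates, library weights and left-out mice. Named genes are the 10 members, 20 pathway genes taken whatever their values, and up to 3 genes with the smallest p in each pathway list. Members and lists were chosen with earlier results of these data known.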

Additional observations from a re-analysis of the deposited data

Results flagged for a closer look

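In 4 of 78 groups of 4 mice (39 named genes in 2 groups), 1 mouse lay far from the other 3, by a gap past Dixon's 95% critical value, where chance alone flags about 1 in 20 groups. Among the 10 family genes this was Egfr in control replicate 2, with 5.44 FPKM against 8.48 to 9.08 in the other controls. The same mouse was low in Adam10, with 27.1 FPKM against 37.7 to 39.6. Phlda1 was high in control replicate 3, with 34.1 FPKM against 13.4 to 16.0, and Mapk3 was low in propionic acid replicate 4, with 106.0 FPKM where the other 3 had 115.7 to 117.6.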

How the results depend on the processing

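Under 20 alternatives, none of the 199 recomputed fold changes of the 10 genes passed the adjusted threshold (lowest adjusted p 0.269), and 179 kept their direction. Those of Areg, Epgn, Hbegf, Egfr and Lrig1 did so throughout. Hbegf had an unadjusted p under 0.05 in all 20, with log2 fold changes of -1.227 to -0.691 and adjusted p of 0.269 to 1.0. Btc had no value with a filter of 5 FPKM. The directions that turned belong mostly to values near 0, and the cause was not tested. Tgfa turned to 0.002 with quantile normalization, 0.125 with the basal keratinocyte covariate, 0.145 with the skeletal muscle covariate and 0.123 without both control replicates 1 and 3. Erbb2 turned to -0.007 with median-of-ratios scaling, -0.078 with weights per library and -0.052 without both control replicates, Erbb3 to 0.088 with the muscle covariate, and Btc to -0.092 without both control replicates. When single mice were left out, the log2 fold change was 0.275 to 0.742 for Areg, -0.536 to 0.113 for Ereg, 0.867 to 1.928 for Epgn, 0.11 to 0.435 for Btc and -1.151 to -0.691 for Hbegf. It was -0.136 to 0.094 for Tgfa, -0.384 to -0.16 for Egfr, -0.111 to 0.097 for Erbb2, -0.385 to -0.112 for Erbb3 and 0.022 to 0.164 for Lrig1.

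The number of the 10 genes with an unadjusted p under 0.05 was 2 with the replicate block, with the basal keratinocyte covariate, with weights per library and without both control replicates, and 3 with the muscle covariate. It was 1 to 3 with 1 mouse left out, highest without control replicate 2, and the number past the threshold was 0 each time. Over all genes, 1 passed with weights per library (Ucp3) and 0 to 2 with 1 mouse left out (Ucp3 without control replicate 2, Cbln1 and Nr1d2 without control replicate 3), and 1351 had an unadjusted p under 0.05 without a filter, 499 with a filter of 5 FPKM (each over another number of tested genes), 1916 with weights and 505 without both control replicates. With 1 mouse left out that count was 442 to 1238. Over all tested genes, same-numbered mice had correlations of deviations of -0.319, -0.081, 0.2 and -0.117. Pairs with different numbers had -0.526 to 0.605, so this check showed no pairing by number but cannot exclude one. With the replicate block, the limma p was 0.00234 for Hbegf and 0.0357 for Epgn (adjusted p = 0.329 and 0.811).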

Other observations

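The ratio of Hbegf to Epgn FPKM within a mouse, chosen after the values were seen, was 0.396, 0.165, 0.742 and 0.303 in propionic acid replicates 1 to 4, and 2.37, 4.98, 3.07 and 0.355 in control replicates 1 to 4. Control replicate 4 lay within the propionic acid range, and the other 3 controls lay above it.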
